A study of Mus musculus with 26 samples.

Results

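Among 16 female Eu-MYC livers profiled by RNA sequencing, 5 carried a strong B-cell transcript signal and 11 did not, and the gene expression of these 5 livers is described here against the other 11. The livers were chosen by their measured Cd79a level: infiltrated at 8 CPM or more and clean below, where CPM is the count of a gene scaled to 1000000 counts of its library. The split is a division of the measured RNA and not of a tissue section, and the word infiltrated is used for it throughout. All animals carried the Eu-MYC transgene, in which the immunoglobulin heavy chain enhancer drives MYC in cells of the B lineage, so the clean livers also came from transgenic mice. The lighting lasted 8 weeks, with 8 females under 12 hours of light and 12 hours of dark (12:12) and 8 females under chronic jet lag lighting (CJL, jet lag). The infiltrated livers were 12:12 females 6 and 7 and jet lag females 2, 5 and 6, and the clean livers were 6 females under 12:12 lighting and 5 under jet lag. The series holds 26 libraries, and its 10 males (6 under 12:12 lighting, 4 under jet lag) were split by the same limit and are compared apart. No age, health record, jet lag schedule or hour of collection is given in the sources used here.

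Cd79a encodes a signalling chain that sits beside the antibody on the B-cell surface, and it is made in the B lineage from its early precursors until the plasma cell stage. In mice with this transgene the enhancer keeps MYC on in precursor and immature B cells, which divide, and lymphomas of these cells can spread to lymph nodes, spleen, marrow and liver. MYC is a transcription factor that pairs with MAX on the DNA word CACGTG and is known for raising genes of ribosome building, nucleotide synthesis and the cell cycle. In a piece of whole liver the RNA of hepatocytes, resident macrophages, vessels and any blood cells is mixed, so a lower value may stand for fewer cells of a type or for less RNA per cell, and these cannot be told apart here.

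Cd79a (chromosome 7, 24897497 to 24901858) stood at 105 CPM in 12:12 female 6, 66.2 in 12:12 female 7, 14.5 in jet lag female 2, 62.7 in jet lag female 5 and 31.4 in jet lag female 6. The clean livers held 2.19 to 2.95 CPM, with a median of 2.59. No liver lay between 2.95 and 14.5 CPM, so limits of 4 CPM and 8 CPM chose the same animals, and jet lag female 2 was the member nearest to the limit. Infiltrated livers were 2 of 8 under 12:12 lighting and 3 of 8 under jet lag (Fisher's exact test, two-sided p = 1).

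Female libraries held 46784284 to 50242024 counts, so an undetected gene could still lie at up to 3 counts, or 0.0641 CPM in the smallest library, by counting error only. Albumin transcripts (Alb), the hallmark of hepatocytes, made up 143162 to 176609 CPM in the infiltrated and 121449 to 144122 CPM in the clean livers. Fold changes below are log2 values of infiltrated over clean livers with lighting held in the model, each with its standard error (SE), from 5 against 11 libraries. Of 17290 genes tested, 3215 (18.6%) were past the limit as higher and 2502 (14.5%) as lower, at an adjusted p of 0.05. Since Cd79a in the same libraries made the groups, these shares describe the split and no share is read as evidence. For the same reason no p is given for a single gene in this comparison. Adjusted p-values of single genes are printed only for the tests between sexes and between lightings. Those tests rest on the same Cd79a groups. With library totals alone as the scale, 4320 genes were higher and 1295 lower, and the median log2 fold change over all genes moved from -0.03 to 0.13. Without 12:12 female 6 the lower genes numbered 1480 and the higher ones 2738. The gene lists were compared with the same background: the highest shares of higher genes were in the lists of cell division, ribosome building and neutrophils, and the highest shares of lower genes in those of pericentral hepatocytes and the interferon response.

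**Figure D1:**
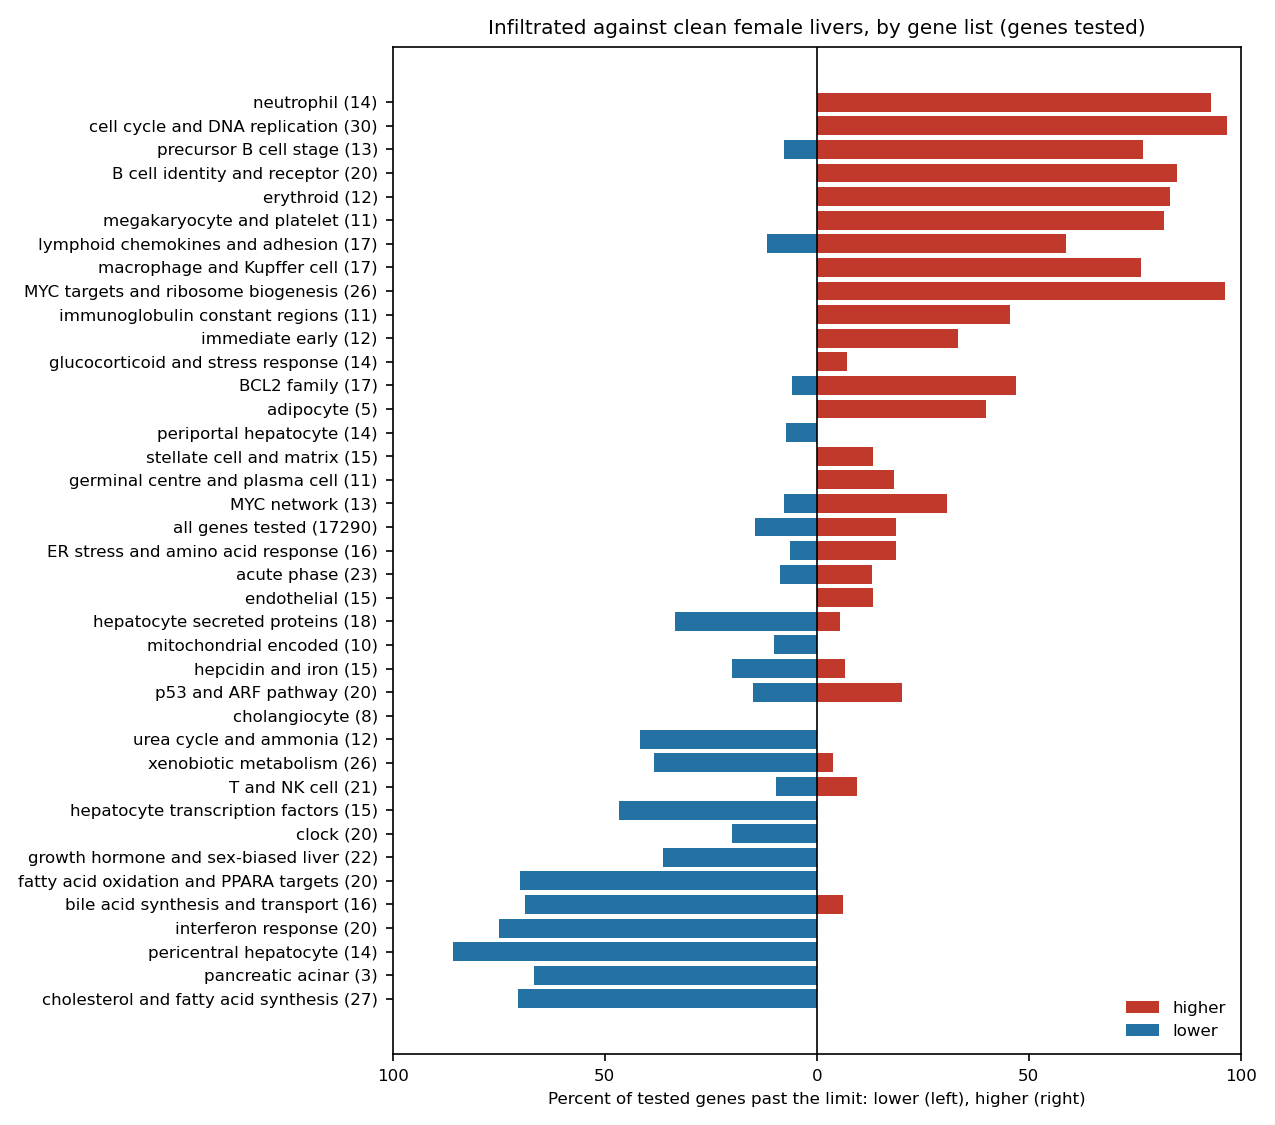
Each bar gives the percent of a list's tested genes that were past the limit in infiltrated against clean female livers, with lower genes to the left, higher genes to the right and the number tested in parentheses, ordered by median log2 fold change. Of 30 cell cycle genes 29 were higher and none lower, and of 14 pericentral genes 12 were lower, beside 18.6% higher and 14.5% lower among all 17290 genes.

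Genes of B-cell identity were higher together. Of 20 members, Cd79a among them, 17 were higher and none lower, with a median log2 fold change of 2.71, and in 13 of them every infiltrated liver lay above every clean liver, which held for 7.09% of all genes tested. Cd79b, the partner chain of Cd79a, stood at 59.1, 49.7, 8.45, 35.6 and 21.8 CPM in the infiltrated livers, in the order 12:12 females 6 and 7 and jet lag females 2, 5 and 6, against 1.52 to 3.14 CPM (median 2.12) in clean livers (log2 fold change 3.78, SE 0.25). The order of the 5 livers in Cd79b was that in Cd79a, with no overlap between the groups. The B-cell transcription factor genes Pax5 and Ebf1 were higher by 3.99 (SE 0.33) and 3.38 (SE 0.36). Pou2af1, which encodes a coactivator of antibody genes, rose from a clean median of 0.388 CPM to between 3.03 and 31.8 CPM (5.13, SE 0.33).

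The members of that list that did not pass were genes of mature B cells and antigen presentation. Cr2, which encodes the complement receptor of mature B cells, lay at 0.0641 to 0.264 CPM in infiltrated and 0.147 to 0.657 CPM in clean livers. Fcer2a, which encodes the low affinity IgE receptor of mature follicular B cells, lay at 0 to 0.314 CPM against 0.101 to 0.345 CPM. Cd74, which encodes the chaperone of MHC class II, overlapped, at 23.8 to 104 CPM against 39.7 to 91.4 CPM. Ms4a1, which encodes CD20, was past the limit at a low level (0.98, SE 0.36), at 0.556 CPM in 12:12 female 6, 3.49 in 12:12 female 7, 1.63 in jet lag female 2, 1.25 in jet lag female 5 and 3.19 in jet lag female 6 against 0.399 to 1.56 CPM in clean livers. Its highest values were thus not in the liver with the most Cd79a, and 12:12 female 6 and jet lag female 5 lay within the clean range.

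Several genes of blood cell signalling stood outside the marker lists and were named because they ranked among the 12 higher genes with the smallest p. Map4k1, which encodes a kinase of blood cell signalling, was higher by 3.45 (SE 0.23), with 21.5, 15.4, 3.09, 10.2 and 10.3 CPM in the infiltrated livers in the order given for Cd79b against 0.739 to 1.26 CPM. Lsp1, which encodes an actin-binding protein of leukocytes, was higher by 3.47 (SE 0.22), Def6, which encodes an exchange factor of lymphocytes, by 3.55 (SE 0.24), and Jakmip1 by 4.43 (SE 0.27). In these 4 genes every infiltrated liver lay above every clean liver, which their choice by small p in the same comparison made likely.

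The infiltrated livers differed from one another in genes of the B-cell precursor stage. Igll1 (chromosome 16, 16860671 to 16863985) encodes a part of the surrogate light chain, which stands in for the light chain before it is rearranged. It stood at 23.6 CPM in 12:12 female 6 and 9.52 CPM in jet lag female 5, and at 0, 0.0209 and 0.0609 CPM in 12:12 female 7 and jet lag females 2 and 6, with 0 to 0.0616 CPM in clean livers. Vpreb1, the other part of the surrogate light chain, stood at 14.0 and 10.2 CPM in those 2 livers and at 0.0406 to 0.251 CPM in the other 3, with 0 to 0.246 CPM in clean livers. Il7r, which encodes the receptor for the growth factor of precursor B cells, stood at 14.4 and 3.80 CPM against 0.272 to 0.569 CPM. The surrogate light chain transcripts were thus near the clean level in 3 of the 5 infiltrated livers.

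Of 13 precursor genes tested, 10 were higher and 1, Kit, was lower. Igll1, at most 0.0616 CPM in clean livers, passed the count filter only through infiltrated livers, so its direction was set by that filter. With no filter on low counts 11 of 15 were higher and 1 lower. The count also depended on the method: limma-voom, an alternative test, gave 4 of 13 higher and 1 lower. Jet lag libraries alone gave 2 of 10 higher and 1 lower. Without 12:12 female 6 and jet lag female 5 only 3 of 12 tested were higher, and without jet lag female 5 alone 6 of 11 were. In that fit without both livers Vpreb1 stood at a log2 fold change of 0.48 and Il7r at 0.27, against 5.62 (SE 1.02) and 3.2 (SE 0.64) in all 16 livers. Vpreb1 moved to 4.11 without 12:12 female 6 and to 4.49 without jet lag female 5, and Il7r to 1.54 without 12:12 female 6. Reads can pass between the near copies Vpreb1 and Vpreb2. Vpreb3, a relative that is also made in immature B cells, and Cd24a, a surface protein of immature B cells, were higher in all 5 livers than in any clean liver. Vpreb3 stood at 36.2, 14.7, 2.63, 16.4 and 5.34 CPM in the order given for Cd79b against 0.242 to 1.89 CPM (4.32, SE 0.44). Cd24a stood at 51.1, 37.6, 5.04, 25.4 and 15.0 CPM against 0.519 to 2.48 CPM (4.54, SE 0.39). The recombination gene Rag1 was at 0 to 0.426 CPM in infiltrated and 0 to 0.0822 CPM in clean livers and was too low to be tested. Dntt, which encodes the enzyme that adds bases at antibody gene joints, was at 11.6 CPM in jet lag female 5 and between 1.17 and 2.82 CPM in the other 4, with 2.02 to 4.34 CPM in clean livers.

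Of 11 tested germinal centre and plasma cell genes 2 were higher and none lower, a share close to the 18.6% of all genes. The 2 genes were Irf4, which encodes a transcription factor of activated B cells and plasma cells, at 1.42 to 8.65 CPM against 0.224 to 0.888 CPM (3.00, SE 0.34), and Mzb1, which encodes a chaperone for antibody assembly that B cells also make. Mzb1 stood at 99.3 CPM in 12:12 female 6, 26.9 in 12:12 female 7, 9.26 in jet lag female 2, 90.9 in jet lag female 5 and 11.9 in jet lag female 6 against 0.224 to 1.52 CPM (5.66, SE 0.52, and 4.97 without jet lag female 5). The highest Mzb1 levels were in the 2 livers with surrogate light chain transcripts. Igha, the constant region of IgA, stood at 12.3 to 39.7 CPM in infiltrated and 13.7 to 38.1 CPM in clean livers, and Ighg2b at 0.15 to 2.54 against 0.596 to 2.87 CPM.

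**Figure D2:**
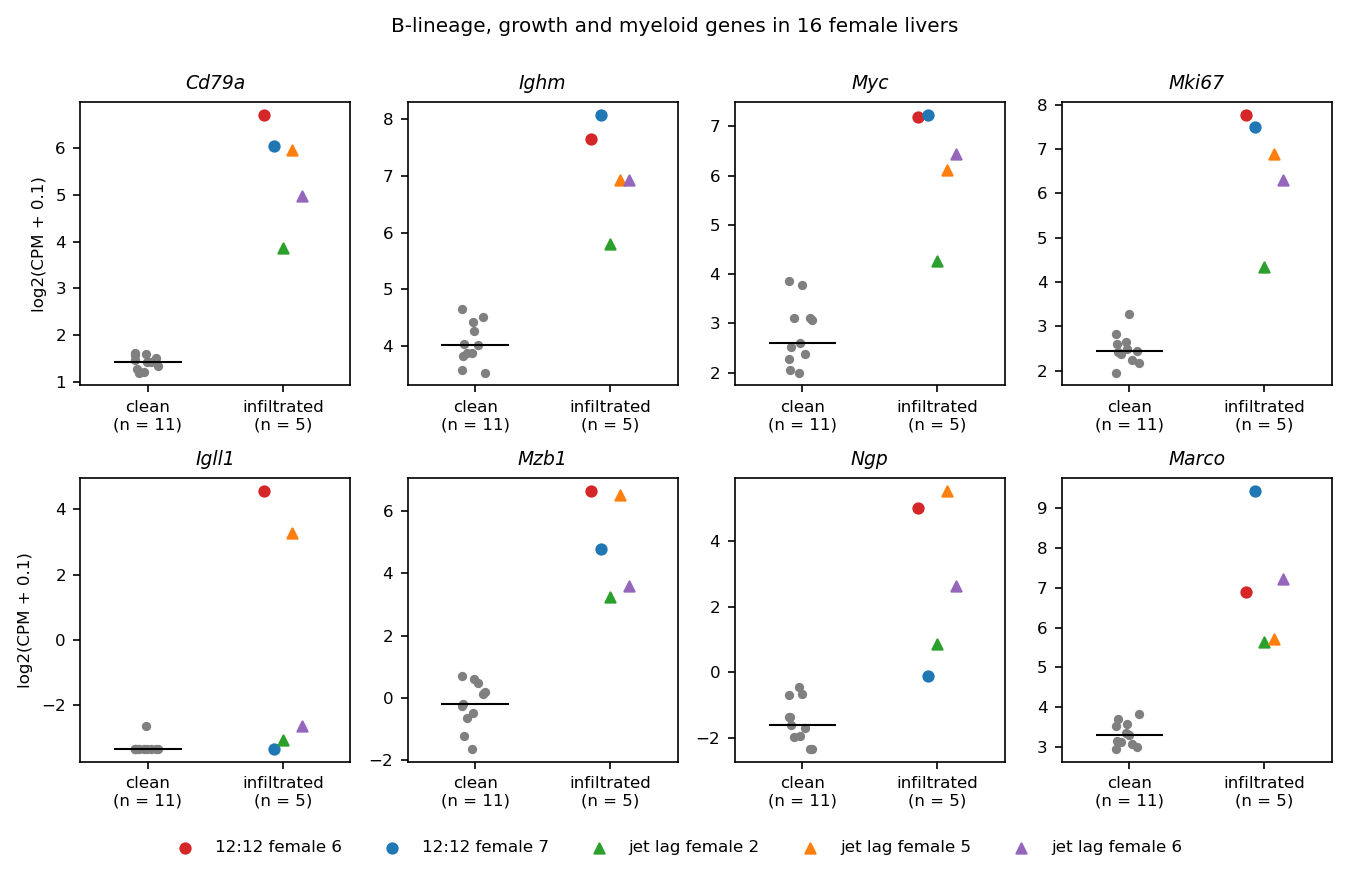
Each panel plots 1 gene on a log scale, log2(CPM + 0.1), in 11 clean livers (grey, with the median as a line) and 5 infiltrated livers (circles for 12:12, triangles for jet lag lighting). Igll1 was high in 12:12 female 6 and jet lag female 5, at 23.6 and 9.52 CPM, and Marco was highest in 12:12 female 7, at 690 CPM.

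Antibody constant and variable genes did not follow each other. Ighm, the constant region of IgM, stood at 202, 271, 55.8, 123 and 122 CPM in the order given for Cd79b, all above the clean range of 11.5 to 25.1 CPM (2.98, SE 0.23). Counts summed over 120 genes of the heavy chain variable region (Ighv) were 277, 707, 585, 610 and 443 in the same order against 370 to 722 in clean livers. The variable counts thus overlapped while the constant counts did not. There were 0.029 to 0.22 Ighv counts per Ighm count in infiltrated livers and 0.35 to 0.73 in clean ones, with the lowest ratio in 12:12 female 6. Reads from rearranged variable genes can be lost or assigned to a near copy by an aligner, and the authors' way of counting them is unknown here.

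The share of the leading variable gene overlapped between the groups. Ighv1-75 took 36.8% of the Ighv counts in 12:12 female 6 (95% Clopper-Pearson interval 31.1% to 42.8%). Ighv1-81 led in 12:12 female 7 at 24.9%, in jet lag female 5 at 23.9% and in jet lag female 6 at 29.6%, and Ighv1-9 led in jet lag female 2 at 20.7%. Ighv1-81 also led in 7 of the 11 clean livers. In clean livers the leading share ran from 9.56% to 31.0%, and its median was 12.0%. Igkv1-110 or Igkv1-117 led among the kappa variable genes of every infiltrated liver and of 10 of the 11 clean livers, with 18.2% to 38.7% of the Igkv counts against 12.7% to 33.1% for the leading gene of clean livers. These shares have no test, and the intervals cover counting error only.

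The light chains split the 5 livers in another way. Kappa took 98.5% of the constant region counts of light chains in 12:12 female 6 and 93.5% in jet lag females 5 and 6, above the clean range of 81.0% to 92.3%. In 12:12 female 7 and jet lag female 2 it took 71.3% and 66.5%, below that range. Lambda transcripts were accordingly high in those 2 livers: Iglc1 stood at 7.99 CPM in 12:12 female 7 and 4.70 in jet lag female 2 against 0.15 to 1.02 in the other infiltrated and 0.185 to 1.62 CPM in the clean livers. Iglc3 reached 14.3 and 2.68 CPM against 0.39 to 1.13 CPM in clean livers. Of 11 tested constant region genes 5 were higher, and 2 without 12:12 female 7. Igkc itself was higher in all 5, at 15.7 to 57.3 CPM against 6.51 to 15.5 CPM (1.66, SE 0.22).

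**Figure D3:**
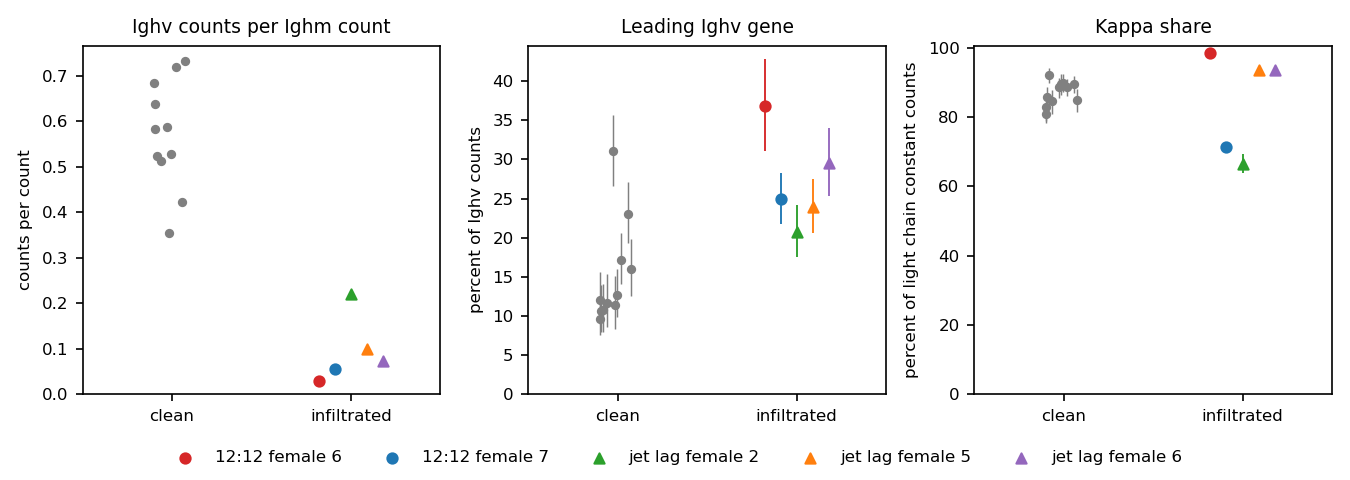
The left panel plots Ighv counts per Ighm count, the middle panel the percent of Ighv counts in the leading gene and the right panel the kappa percent of light chain constant counts, in 11 clean and 5 infiltrated livers, with 95% Clopper-Pearson intervals as bars where they apply. The ratio was 0.029 to 0.22 in infiltrated and 0.35 to 0.73 in clean livers, and kappa lay below the clean range in 12:12 female 7 and jet lag female 2.

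Myc (chromosome 15, 61985341 to 61990361) stood at 145 CPM in 12:12 female 6, 150 in 12:12 female 7, 19.0 in jet lag female 2, 69.6 in jet lag female 5 and 86.4 in jet lag female 6. Clean livers held 3.90 to 14.3 CPM, with a median of 5.94 CPM. All 5 infiltrated livers lay above all clean livers, jet lag female 2 by the least (3.44, SE 0.36). Reads of the transgene and of the resident gene are not separated in these counts. Of 13 genes of the MYC network, 4 were higher and 1 lower, beside 18.6% and 14.5% of all genes. Max, the obligate partner of MYC, was higher with overlap, at 13.4 to 21.5 CPM against 8.46 to 15.2 CPM (0.47, SE 0.13), and missed the limit without 12:12 female 6 and jet lag female 5 (0.36). Mxd3, which encodes a MAX partner found in dividing cells, was higher by 2.36 (SE 0.44) with overlap. Its level was low, at 0.167 to 1.51 CPM in infiltrated and 0.0411 to 0.358 CPM in clean livers. Jet lag females 2 and 6 lay within the clean range of Mxd3, at 0.167 and 0.325 CPM. Mycn, a relative of Myc, stood at 0.188 to 0.482 CPM against 0.107 to 0.916 CPM.

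Known targets of MYC were higher in nearly the whole list. Of 26 genes of MYC targets and ribosome biogenesis, 25 were higher and none lower, with a median log2 fold change of 0.91 beside -0.03 for all genes. Cad, which encodes the enzyme that opens pyrimidine synthesis, stood at 91.7, 67.1, 23.6, 60.3 and 36.6 CPM in the order given for Cd79b against 9.42 to 18.1 CPM (1.78, SE 0.19). Npm1, which encodes the nucleolar protein nucleophosmin, was higher by 1.58 (SE 0.19), Nop56, which encodes a core protein of small nucleolar particles, by 1.48 (SE 0.19), and Mybbp1a, which encodes a nucleolar protein of ribosome assembly, by 1.08 (SE 0.12). In Npm1 and Nop56 jet lag female 2 lay within the clean range, at 17.4 and 24.6 CPM against up to 19.0 and 25.6 CPM. Tfrc, which encodes the transferrin receptor of dividing cells, stood at 27.1 to 53.3 CPM against 7.71 to 22.8 CPM (1.24, SE 0.15). Ldha, which encodes lactate dehydrogenase, was the member that did not pass, at 544 to 964 CPM against 305 to 578 CPM.

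The CACGTG word was looked for in the 250 bases before the start of each gene, in promoter windows from RefSeq on the GRCm38.p6 build. The word reads the same on both strands. It occurred in 9.1% of the 11886 tested genes with a window, in 8.9% of the higher genes and in 8.6% of the lower genes. Among the MYC target list it occurred in 5 of 21 genes with a window, Nme1, Apex1, Eif4e, Cdk4 and Ldha, and among the cell cycle list in 1 of 25. A match describes the letters and not a bound site. The windows of Cdk4, with 4 matches, and of Apex1, with 1, are shown for members of the list that were higher, and that of Hmgcs1 for the cholesterol genes described further on. Capitals mark CACGTG in the first and second and TCACNCCAC, a word like those that the sterol regulator SREBP binds, in the third.
Cdk4, chr10:127063285-127063534, plus strand: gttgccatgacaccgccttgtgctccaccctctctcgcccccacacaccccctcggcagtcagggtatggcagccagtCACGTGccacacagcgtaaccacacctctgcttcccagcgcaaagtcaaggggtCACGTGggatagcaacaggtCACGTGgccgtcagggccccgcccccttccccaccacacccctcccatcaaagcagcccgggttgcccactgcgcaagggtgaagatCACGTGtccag
Apex1, chr14:50924699-50924948, plus strand: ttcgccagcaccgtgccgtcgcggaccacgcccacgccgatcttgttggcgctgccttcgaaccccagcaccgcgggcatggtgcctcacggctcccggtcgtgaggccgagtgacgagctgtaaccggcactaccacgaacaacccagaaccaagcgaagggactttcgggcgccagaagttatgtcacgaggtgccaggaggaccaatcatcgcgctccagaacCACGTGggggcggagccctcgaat
Hmgcs1, chr13:119690101-119690350, plus strand: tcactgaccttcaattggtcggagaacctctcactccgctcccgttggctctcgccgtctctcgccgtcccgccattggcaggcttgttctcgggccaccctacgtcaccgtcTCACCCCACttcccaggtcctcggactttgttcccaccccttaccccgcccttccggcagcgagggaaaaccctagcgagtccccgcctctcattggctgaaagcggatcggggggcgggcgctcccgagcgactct

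Cdk4 encodes a kinase that drives entry into the cell cycle. It stood at 112, 65.1, 39.0, 71.1 and 68.4 CPM in the order given for Cd79b against 25.9 to 36.1 CPM, with no overlap (1.02, SE 0.13). Apex1, which encodes an endonuclease of base excision repair, stood at 70.9, 39.5, 25.7, 53.9 and 35.9 CPM against 21.3 to 26.2 CPM (0.75, SE 0.14), and jet lag female 2 lay within the clean range.

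Genes of cell division had the highest median of the growth lists. Of 30 genes 29 were higher and none lower, with a median log2 fold change of 3.36, and in 24 of them all infiltrated livers lay above all clean livers. Mki67 (chromosome 7, 135689784 to 135716450), which encodes the Ki-67 protein of dividing cells, stood at 219, 181, 20.2, 119 and 79.3 CPM in the order given for Cd79b against 3.78 to 9.52 CPM (4.22, SE 0.33). Uhrf1, which keeps DNA methylation through replication, was higher by 4.71 (SE 0.34), Ccna2, the cyclin of DNA synthesis, by 4.27 (SE 0.35), the spindle checkpoint gene Bub1b by 4.19 (SE 0.32) and the transcription factor gene E2f2 by 3.99 (SE 0.34). Of the 16 genes of the ER stress and amino acid list 3 were higher, close to the 18.6% of all genes, and 1 was lower. Phgdh, the entry enzyme of serine synthesis, stood at 17.1, 8.82, 1.38, 7.98 and 3.29 CPM against 0.0623 to 0.303 CPM (5.37, SE 0.38). Psat1, the next enzyme of that path, was higher by 4.71 (SE 0.36) and the asparagine synthetase gene Asns by 4.22 (SE 0.30). These were the 3 higher genes of that list.

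In each of the 5 livers the excess of a gene over the clean median was set against that of Cd79a. This ratio was looked at after the values were seen and has no test. Per CPM of excess Cd79a there were 1.25 to 2.76 CPM of excess Mki67, with the lowest Mki67 ratio in jet lag female 2. Excess Ighm was 1.82 and 1.77 CPM per CPM of Cd79a in 12:12 female 6 and jet lag female 5, the 2 livers with surrogate light chain transcripts, and 3.35 to 4.01 CPM in the other 3. Excess Vpreb3 ran the other way, at 0.349 and 0.265 against 0.169 to 0.224 CPM.

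For the p53 pathway, which MYC is known to engage through the ARF protein of Cdkn2a, the counts were close to the shares of all genes. Of 20 genes 4 were higher and 3 lower, beside 18.6% and 14.5% of all genes. Cdkn2a stood at 1.97, 1.15, 0, 1.27 and 0.203 CPM in the order given for Cd79b against 0 to 0.122 CPM, so jet lag female 2 lay at 0. Trp53, the gene of p53, was higher in all 5 livers, at 23.7 to 45.6 CPM against 16.3 to 22.2 CPM (0.66, SE 0.10). Mdm2, a target of p53 that degrades it, lay at 12.2 to 15.6 against 11.2 to 14.5 CPM, and the cell cycle inhibitor gene Cdkn1a at 0.564 to 3.09 against 0.264 to 2.66 CPM. The p53 target Perp, a desmosome protein gene, was lower by -0.62 (SE 0.10).

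Of 17 tested genes of the BCL2 family, which sets the threshold for cell death, 8 were higher and 1 lower, and 4 were higher without 12:12 female 7. Bcl2a1b, a survival gene of blood cells with near copies, stood at 1.28 to 5.88 CPM against 0.358 to 1.01 CPM (1.86, SE 0.26). Mcl1, a survival gene on which B cells depend, was higher by 0.33 (SE 0.09), and Pmaip1, which encodes the death-promoting protein NOXA, by 2.33 (SE 0.40) with overlap. Bcl2 lay at 0.163 to 0.916 CPM against 0.102 to 0.485 CPM.

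Transcripts of other blood cells were also higher in the infiltrated livers, and their part in the results above was not tested. For neutrophils 13 of 14 genes were higher, and the summed level of the list was 309, 49.9, 205, 562 and 117 CPM in the order given for Cd79b against 18.5 to 111 CPM, so 12:12 female 7 lay in the clean range of the sum. Lcn2, which hepatocytes also make, stood at 58.2, 27.4, 180, 74.8 and 51.4 CPM in that order against 9.91 to 95.6 CPM. The sum is therefore not read as an amount of neutrophils, least of all in jet lag female 2. Ngp (chromosome 9, 110419808 to 110423012), which encodes a granule protein of immature neutrophils, stood at 31.8, 0.831, 1.71, 45.6 and 6.11 CPM against 0.101 to 0.632 CPM (5.66, SE 0.75, 4.76 without 12:12 female 6 and 4.80 without jet lag female 5). The 2 livers with surrogate light chain transcripts held the most Ngp. S100a8, an abundant calcium-binding protein gene of neutrophils, stood at 54.8, 1.64, 3.43, 150 and 9.47 CPM against 0.512 to 2.32 CPM (5.26, SE 0.85, and 3.69 without jet lag female 5). Elane, the elastase gene of promyelocytes, was higher by 4.61 (SE 0.67, and 3.73 without 12:12 female 6), and Camp, another granule gene, reached 12.5 and 20.3 CPM in those 2 livers against at most 0.182 CPM in clean ones. Elane was at most 0.187 CPM in clean livers. Elane and Camp thus passed the count filter only through infiltrated livers, and their direction was set by that filter. Csf3r, the receptor gene for the neutrophil growth factor, was higher in all 5 livers (1.18, SE 0.18). Without 12:12 female 6 and jet lag female 5, 9 of 13 tested genes of the list were higher.

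Red cell genes were highest in 12:12 female 7. Of 12 tested erythroid genes 10 were higher, and the summed level was 2460, 11776, 5638, 5153 and 2961 CPM in the order given for Cd79b against 811 to 4654 CPM. Hba-a1, an alpha globin gene with a near copy, stood at 3635 CPM in 12:12 female 7 and at 671 to 1598 CPM in the other 4, against 229 to 1140 CPM (1.61, SE 0.37), and missed the limit when the groups were cut at 16 CPM of Cd79a (1.24). Alas2, which encodes the red cell enzyme that begins heme synthesis, stood at 179 CPM in 12:12 female 7 and 44.5 to 78.9 CPM in the others against 19.8 to 65.5 CPM (1.31, SE 0.27). Slc4a1, a membrane protein gene of red cells, was low but above all clean livers in all 5, at 1.5 to 4.94 CPM (2.98, SE 0.45). Of 11 tested platelet genes 9 were higher, and 5 of 10 without 12:12 female 6 and jet lag female 5. Pf4 and Ppbp, platelet chemokine genes, were higher by 1.38 (SE 0.29) and 2.78 (SE 0.43), and Pf4 missed the limit without those 2 livers (0.69). Both were highest in 12:12 female 6 and jet lag female 5, the livers with the most Ngp.

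Macrophage genes were higher in every infiltrated liver. Of 17 genes 13 were higher and none lower, and the summed level was 1484, 3027, 1031, 1324 and 1246 CPM in the order given for Cd79b against 550 to 851 CPM. Marco (chromosome 1, 120474538 to 120505024), which encodes a scavenger receptor, stood at 120, 690, 49.8, 52.1 and 150 CPM against 7.68 to 14.1 CPM (4.03, SE 0.41, and 3.14 without 12:12 female 7). Clec4f, the lectin gene that defines Kupffer cells of the mouse, was higher by 0.47 (SE 0.12), at 163 to 265 CPM against 104 to 158 CPM. Both genes lay above the clean range in all 5 livers. C1qb, a complement gene of tissue macrophages, was higher by 0.95 (SE 0.14), Cd68, a lysosomal marker of macrophages, by 1.16 (SE 0.19) and Cd5l, a secreted protein gene of tissue macrophages, by 1.14 (SE 0.19).

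Of 21 tested T and NK cell genes 2 were higher and 2 lower, beside 18.6% and 14.5% of all genes. The summed level was 40.01, 45.1, 20.1, 33.3 and 22.8 CPM in the order given for Cd79b against 21.4 to 28.6 CPM. Cd3e, a chain of the T-cell receptor complex, stood at 0.257 to 0.528 CPM in infiltrated and 0.279 to 0.637 CPM in clean livers, and the receptor constant gene Trac at 0.345 to 1.43 against 0.636 to 1.58 CPM. The higher genes were Cd2 and Lck, an adhesion gene and a kinase gene that B-lineage cells can also make. Cd2 stood at 19.9 CPM in 12:12 female 7 and 1.39 to 3.68 CPM in the other 4 against 0.673 to 1.84 CPM (2.13, SE 0.40, and 1.04 without 12:12 female 7). Lck stood at 2.15 to 8.53 CPM against 0.967 to 2.10 CPM (1.45, SE 0.26). Gzmb, a killer cell protease gene, was lower by -1.14 (SE 0.28), at 0.32 to 0.583 CPM against 0.364 to 1.26 CPM.

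Genes of lymphocyte homing and adhesion were mixed in source and mostly higher, with 10 of 17 higher and 2 lower. Cxcr4, which encodes the receptor that holds B-cell precursors near CXCL12, stood at 36.3, 18.7, 1.90, 16 and 12.5 CPM in the order given for Cd79b against 0.338 to 0.82 CPM (4.66, SE 0.35). Itga4, an integrin chain of lymphocytes, was higher by 2.72 (SE 0.29). Vcam1, which encodes the vessel and macrophage ligand of that integrin, stood at 28.8 to 112 CPM against 15.4 to 23.7 CPM (1.56, SE 0.18). Cxcl13, which encodes the chemokine of B-cell follicles, was lower with overlap, at 0.548 to 1.53 CPM against 0.862 to 4.08 CPM (-1.37, SE 0.31).

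Of 15 stellate cell and matrix genes 2 were higher, and of 15 endothelial genes also 2, beside 18.6% of all genes, so neither count is read as a result about those cells. The stellate list held Vim, a filament gene that blood cells also make, at 51.2 to 362 CPM against 16.9 to 23.2 CPM (2.62, SE 0.25). Among the 2 higher endothelial genes was Lyve1 of sinusoidal and lymphatic vessels (1.43, SE 0.27), and of 8 tested bile duct genes none passed in either direction. Lpl, the lipoprotein lipase gene, and Fabp4, a fatty acid carrier gene, were the 2 higher of 5 tested adipocyte genes, by 1.94 (SE 0.20) and 1.09 (SE 0.13), and macrophages can make both.

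Genes of hepatocytes were lower in some programmes more than in others. Alb did not pass (0.08, SE 0.08), and of 18 genes of secreted liver proteins 1 was higher and 6 lower, with 3 lower without 12:12 female 6 and 1 without 12:12 female 7. With library totals as the scale 2 of them were higher and 1 lower, so the balance of that list turned. Blood cell transcripts were higher in the same livers, with the B-cell identity list at 207 to 805 CPM against 80.2 to 152 CPM in clean livers, and their part in the lower liver genes was not tested. The 12 lower genes with the smallest p included Gamt, Abcd3 and Vwa8, and in each of these every infiltrated liver lay below every clean liver. This held for 1.12% of all genes tested, but the choice by small p in the same comparison made it likely, so it is no separate result. Gamt, which encodes the last enzyme of creatine synthesis, stood at 89.1, 107, 126, 120 and 83.8 CPM in the order given for Cd79b against 187 to 261 CPM (-1.22, SE 0.13). Abcd3, a transporter gene of the peroxisome membrane, stood at 164, 202, 212, 258 and 140 CPM against 337 to 501 CPM (-1.16, SE 0.14). Vwa8, a mitochondrial ATPase gene, had a fold change of -1.05 (SE 0.13). The lowest Gamt and Abcd3 were in jet lag female 6.

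The synthesis of cholesterol and fatty acids was the list with the lowest median, -1.13, with 19 of 27 genes lower and none higher. Hmgcs1, which makes an early intermediate of the sterol path and whose promoter window is printed above, stood at 78.2, 168, 247, 427 and 161 CPM in the order given for Cd79b against 249 to 955 CPM (-1.97, SE 0.33). Jet lag female 5 overlapped the clean range in Hmgcs1 and the other 4 lay below it. Mvd and Sqle, later enzymes of the path, had fold changes of -1.61 (SE 0.25) and -1.56 (SE 0.25). Scap, which encodes the escort of SREBP, fell below all clean livers, at 150 to 196 CPM against 213 to 285 CPM (-0.71, SE 0.08). The word TCACNCCAC, searched on both strands, occurred in 1.3% of tested genes with a window, 2.29% of lower genes, 1.12% of higher genes and 1 of 19 genes of this list.

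Bile acid genes were lower in 11 of 16 tested, with 1 higher and a median of -0.69, and 7 were lower without 12:12 female 6 and jet lag female 5. Cyp7b1, which encodes an enzyme of the alternative path of bile acid synthesis, stood at 9.77, 7.65, 15.1, 12.9 and 9.14 CPM in the order given for Cd79b against 17.2 to 39.0 CPM (-1.35, SE 0.20). Cyp27a1, the enzyme ahead of it, stood at 267 to 367 CPM against 411 to 616 CPM (-0.73, SE 0.11), and in both genes the groups did not overlap. Cyp8b1, which directs synthesis to cholic acid, stood at 4.37 CPM in 12:12 female 7 and 28.9 to 82.9 CPM in the other 4 against 59.2 to 294 CPM (-2.13, SE 0.55). Slc10a1, the importer of bile acids, was at -0.72 (SE 0.13).

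Genes of hepatocytes around the central vein were lower in most of their list and those around the portal tract in 1 case. Of 14 pericentral genes 12 were lower, with a median of -0.92, and of 14 periportal genes 1 was lower, with a median of 0.22. This difference between lists has no test. Gulo, of vitamin C synthesis, stood at 212, 202, 291, 332 and 212 CPM in the order given for Cd79b against 356 to 532 CPM (-0.97, SE 0.15). Glul, the glutamine synthetase gene that defines the innermost ring, stood at 310, 143, 542, 855 and 437 CPM against 648 to 875 CPM, so jet lag female 5 was at the upper end of the clean range. Cyp2e1, an abundant cytochrome P450 gene, was at -0.51 (SE 0.16) and missed the limit without 12:12 female 6 (-0.29), with library totals as the scale (-0.35) and without 12:12 female 6 and jet lag female 5 together (-0.34). Without 12:12 female 6, 5 of the 14 pericentral genes were lower, and without that liver and jet lag female 5, 7 were. In 12:12 libraries alone 12 were lower, with a median of -1.31, and in jet lag libraries alone 2 were, with a median of -0.58. Cyp2f2 was the periportal gene that was lower, at 508 to 980 CPM against 898 to 1354 CPM (-0.71, SE 0.13). The urea cycle gene Otc was below every clean liver, by the least in jet lag female 2, at 312 to 444 CPM against 444 to 603 CPM (-0.62, SE 0.11).

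Fat burning genes and their regulator PPARA were lower, with 14 of 20 genes lower, none higher and a median of -0.60. In 12:12 libraries alone 15 of 19 were lower, with a median of -0.78, and in jet lag libraries alone none of 20 was, with a median of -0.42. Ppara itself stood at 26.1, 93.8, 35.3, 55.0 and 34.4 CPM in the order given for Cd79b against 50.2 to 113 CPM (-1.07, SE 0.22), so 12:12 female 7 was near the clean median of 96.9 CPM. Hadha, a subunit of the mitochondrial enzyme of fatty acid oxidation, stood at 272 to 378 CPM against 375 to 469 CPM (-0.60, SE 0.10). Of 15 transcription factor genes of hepatocytes 7 were lower, among them Cebpa (-0.75, SE 0.17), and 3 were lower without 12:12 female 6 and 4 without 12:12 female 7. Ghr, the growth hormone receptor gene, stood at 171 to 270 CPM against 300.04 to 354 CPM (-0.66, SE 0.10).

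**Figure D4:**
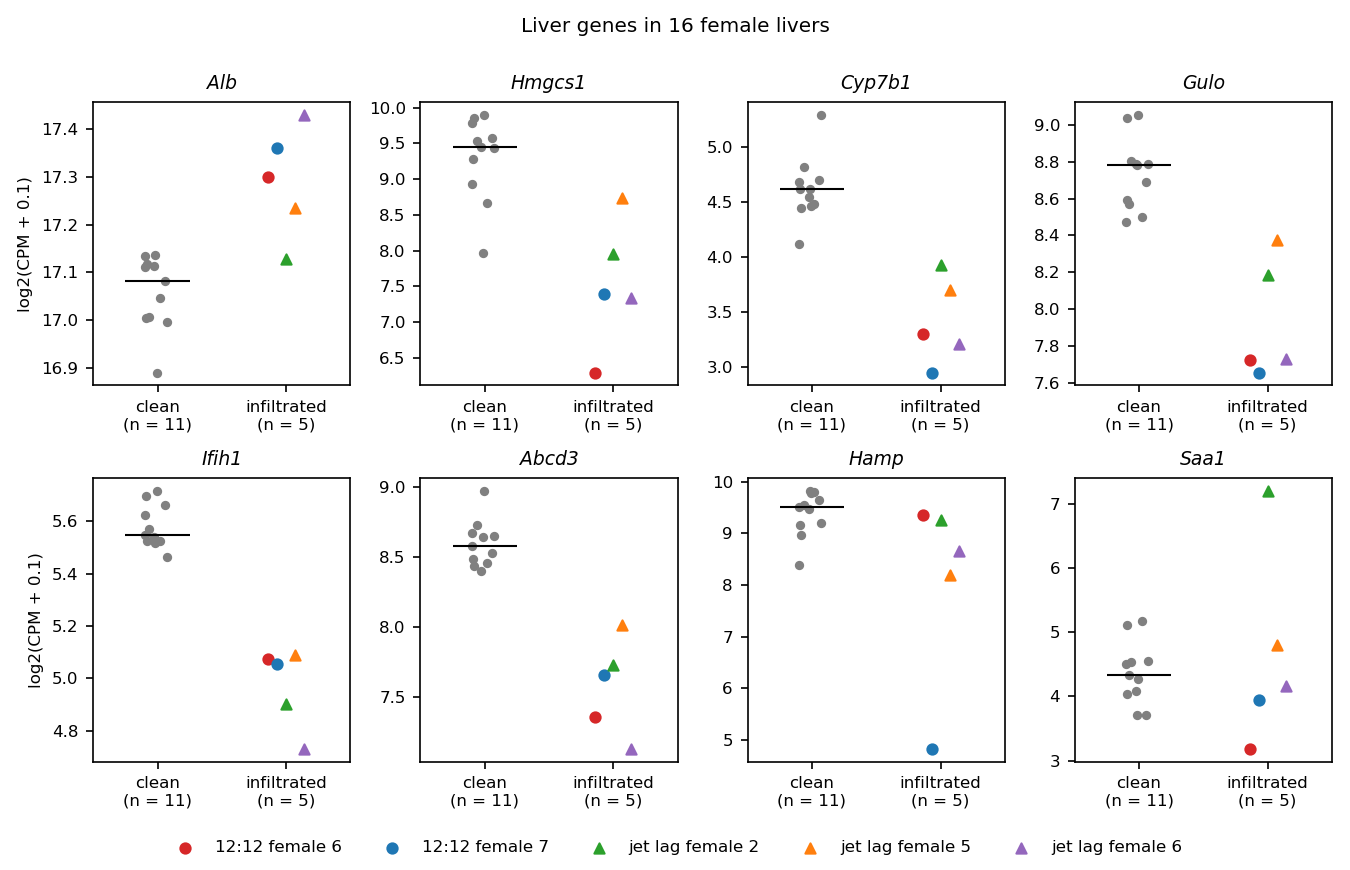
Each panel plots 1 gene on a log scale, log2(CPM + 0.1), in 11 clean livers (grey, with the median as a line) and 5 infiltrated livers (circles for 12:12, triangles for jet lag lighting). Cyp7b1, Gulo, Ifih1 and Abcd3 lay below every clean liver in all 5, Hamp was lowest in 12:12 female 7 at 28.3 CPM and Saa1 highest in jet lag female 2 at 147 CPM.

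The interferon response, genes that cells switch on when interferon binds its receptors, was lower in 15 of 20 genes tested and higher in none, with a median of -0.81. It was lower in 14 genes in 12:12 libraries alone (median -0.99) and in 3 in jet lag libraries alone (median -0.71). Ifit3, an antiviral effector gene, stood at 12.0, 10.6, 11.8, 15.1 and 6.32 CPM in the order given for Cd79b against 16.4 to 30.1 CPM (-1.14, SE 0.17). Usp18, which damps the receptor, was at -1.13 (SE 0.18) and Gbp3, a GTPase gene, at -1.43 (SE 0.23). In these 3 genes no infiltrated liver reached the clean range, and the lowest value of each was in jet lag female 6. Ifih1, a sensor of viral RNA, stood at 26.5 to 34.0 CPM against 44.0 to 52.5 CPM (-0.77, SE 0.07).

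Single livers stood out in some acute phase and iron genes. Of 23 acute phase genes 3 were higher and 2 lower, beside 18.6% and 14.5% of all genes. In 12:12 libraries alone none was higher and 8 were lower (median -0.48), and in jet lag libraries alone 5 were higher and none lower (median 0.34). The difference between the lightings was not tested for the list. Apcs, which encodes the serum amyloid P component, was higher by 0.80 (SE 0.18). Saa1, the strongest acute phase gene of the mouse, stood at 147 CPM in jet lag female 2 and 9 to 27.9 CPM in the other 4 against 12.9 to 36.1 CPM. Lcn2, which hepatocytes and neutrophils both make, was also highest in jet lag female 2, at 180 CPM, with 27.4 to 74.8 CPM in the others and 9.91 to 95.6 CPM in clean livers. Hamp, which encodes the iron hormone hepcidin, stood at 28.3 CPM in 12:12 female 7 and 294 to 659 CPM in the other 4 against 336 to 907 CPM, and that liver also held the most erythroid transcripts. Its copy Hamp2 stood at 62.0 to 390 CPM against 295 to 694 CPM (-1.27, SE 0.35). Among 20 clock genes 4 were lower, near the 14.5% of all genes, and the count ran from 1 to 6 when 1 library was left out, with 1 on the scale of library totals and none in jet lag libraries alone. Hlf, which encodes an output factor of the clock, was among the 4 (-0.73, SE 0.16), and the hour at which each liver was taken is unknown here.

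The males were divided by the Cd79a level of their own libraries, so here too the comparison describes the split. No p is given for a single gene in the comparison of infiltrated with clean males. With the same limit 3 of 10 males were infiltrated, 12:12 males 3 and 5 and jet lag male 8, at 45.6, 26.2 and 144 CPM against 1.28 to 2.42 CPM in the 7 clean males. Xist, which is made from the inactive X chromosome, stood at 575 to 1060 CPM in the 16 females and at most 0.607 CPM in the 10 males, and no male held less than 14.5 CPM of the Y-linked Ddx3y while no female held more than 0.0627 CPM, so the RNA matched the labelled sex in all 26 libraries. In males 2291 of 17410 genes (13.2%) were higher and 466 (2.68%) lower in infiltrated livers. Without jet lag male 8 these counts were 634 and 6, without 12:12 male 3 they were 1660 and 67, and without 12:12 male 5 they were 2873 and 1692. Leaving out 1 of 12:12 males 1, 2, 4 and 6 or jet lag males 5 and 6, all clean, gave 197 to 294 lower genes. Of the 3215 genes higher in females 3174 were tested in males, and 3114 of them (98.1%) had the same sign, 1899 (59.8%) were also higher and none was lower. Of the 2502 genes lower in females 2477 were tested in males, and 2321 (93.7%) had the same sign, 309 (12.5%) were also lower and 12 were higher. Both sexes were split by the same gene, so these shares are a description and no independent support.

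In males the log2 fold change was 4.42 for Cd79b, 5.01 for Mki67 and 4.19 for Myc. Myc stood at 112 and 47.8 CPM in 12:12 males 3 and 5 and 293 CPM in jet lag male 8, against 2.68 to 22.4 CPM in clean males. The myeloid genes Ngp and Marco were higher by 6.27 and 4.57. Surrogate light chain transcripts were again uneven, with Igll1 at 3.39 CPM in jet lag male 8 and 0.186 and 0 CPM in 12:12 males 3 and 5. By list, 16 of 20 B-cell identity genes, which include the Cd79a that made the groups, 29 of 30 cell cycle genes, 18 of 26 MYC target genes, 12 of 14 neutrophil genes and 11 of 17 macrophage genes were higher in males, beside 13.2% of all genes.

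Fewer genes of the liver lists that were lower in females passed in males. Of 27 cholesterol and fatty acid genes none was lower and 1 was higher, with Hmgcs1 at -0.23. Of 20 interferon genes 1 was lower, with Ifit3 at -0.74, not past the limit, and of 14 pericentral genes none was. Fat burning genes passed in 6 of 20, with Hadha at -0.59. Abcd3 and Vwa8 had male fold changes of -1.08 and -1.03, both just past the limit. Abcd3 stood at 194 and 120 CPM in 12:12 male 3 and jet lag male 8 and at 447 CPM in 12:12 male 5, against 318 to 524 CPM in clean males. Vwa8 stood at 102, 89.1 and 272 CPM in the same order against 169 to 327 CPM. In both genes 12:12 male 5 thus lay within the clean range, and the other 2, which lay below it, are those with Slc22a26 at female levels, as given further on. Erythroid genes were higher in 3 of 12, with Alas2 at -1.17 and Hba-a1 at -0.07, neither past the limit. A gene that passed in females and not in males is not thereby shown to differ between them. Of the genes whose male fold change is given in this paragraph, none differed between the sexes past the limit. Slc22a26 did, as described below.

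**Figure D5:**
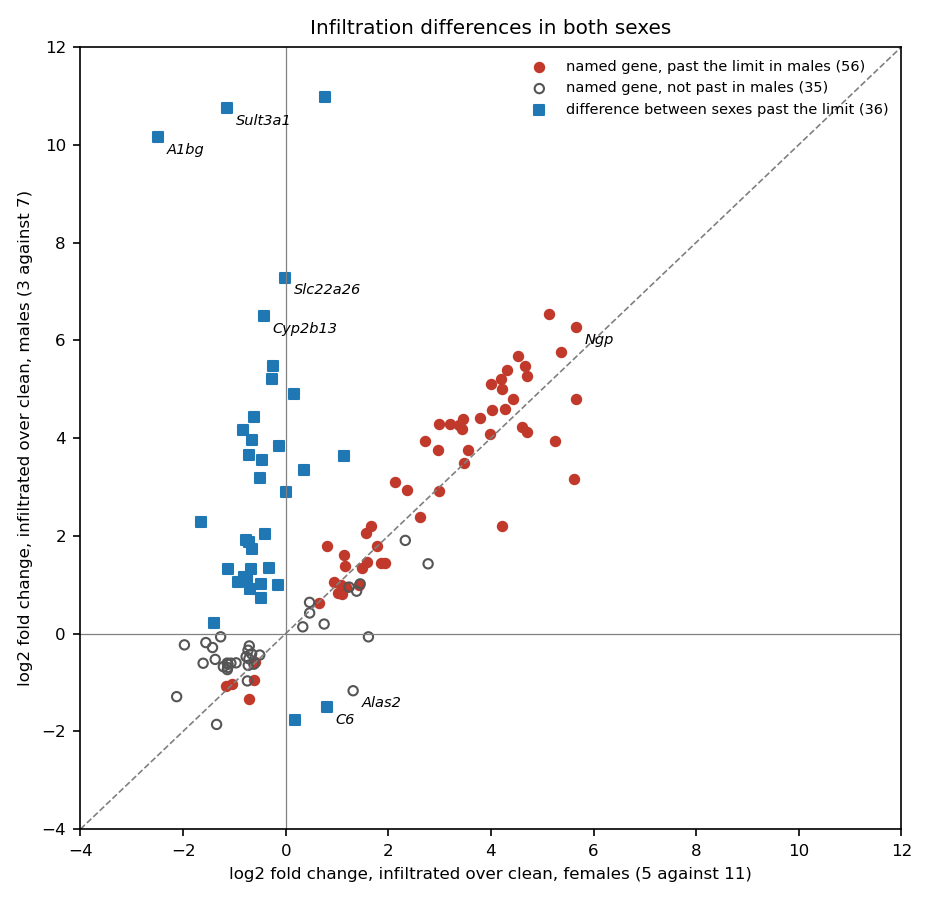
Each point is a gene placed by its log2 fold change of infiltrated over clean livers in females (horizontal, 5 against 11) and males (vertical, 3 against 7), with filled circles for named genes past the limit in males, open circles for other named genes, squares for genes whose difference between the sexes passed and a dashed line where both are equal. Most circles lie near the dashed line, while the squares of Cyp2b13 and Slc22a26 lie high in males and near 0 in females.

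The difference between the sexes was tested directly over 18534 genes. The female minus male log2 difference was above 0 past the limit for 2 genes (0.0108%) and below 0 for 35 (0.189%). Among the 35 were genes that clean female livers held at a high level and clean male livers at a low one. Slc22a26, a transporter gene, stood at 195 to 346 CPM in infiltrated and 231 to 296 CPM in clean females. In males it stood at 246 CPM in 12:12 male 3, 199 CPM in jet lag male 8 and 0.974 CPM in 12:12 male 5, with 0.568 to 1.01 CPM in clean males (female minus male log2 difference -7.25, SE 0.88, adjusted p = 0.000759). Thus 2 of the 3 infiltrated males reached female levels of this gene and the other stayed at the level of clean males. The counts were 1 and 5 without jet lag male 8, 0 and 9 without 12:12 male 3, and 103 and 115 without 12:12 male 5. C6, a complement gene that clean males make more of, was the higher gene with the smallest p (2.38, SE 0.46, adjusted p = 0.0177). It stood at 26 to 60.7 CPM in infiltrated and 15.2 to 27.5 CPM in clean females, and at 45.1, 247 and 55.9 CPM in 12:12 males 3 and 5 and jet lag male 8 against 192 to 342 CPM in clean males.

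Few genes passed the test of whether lighting changed the infiltration difference. Of 17290 genes the jet lag minus 12:12 log2 difference was above 0 for 3 (0.0174%) and below 0 for 1 (0.00578%), in a test of 3 infiltrated jet lag livers against 2 infiltrated 12:12 livers, each beside its clean livers. Slc1a2, a glutamate transporter gene of pericentral hepatocytes, stood at 59.4 and 59.6 CPM in 12:12 females 6 and 7 against 161 to 201 CPM in clean 12:12 livers. Under jet lag it stood at 117, 132 and 95.8 CPM in females 2, 5 and 6 against 140 to 193 CPM (jet lag minus 12:12 log2 difference 1.31, SE 0.19, adjusted p = 0.0298). Slc1a2 was thus lower in both settings and by more under 12:12 lighting. Mir8114, another of the 3 genes above 0, overlaps Glul, as described further on. Rftn1, a lipid raft gene of B cells, stood at 17.3 and 19.2 CPM under 12:12 lighting and 4.14, 8.36 and 6.18 CPM under jet lag (-1.68, SE 0.28, adjusted p = 0.0449). Cd79a itself was higher in both infiltrated 12:12 livers, at 105 and 66.2 CPM, than in any of the 3 jet lag livers, so lighting and the amount of Cd79a cannot be told apart in this test. No gene stayed past the limit when 12:12 female 1, 2, 3, 4 or 5 or jet lag female 2, 3, 4 or 7 was left out. In that test 1 and 2 genes passed without jet lag females 1 and 8, and 99, 210, 255 and 140 passed without 12:12 female 6, 12:12 female 7, jet lag female 5 and jet lag female 6. In the other main lists the counts within 12:12 libraries and within jet lag libraries were 24 and 10 higher for MYC targets, 29 and 27 higher for the cell cycle, 13 and 7 higher for macrophages, 22 and 10 lower for cholesterol and fatty acid synthesis and 9 and 2 lower for bile acid genes, and these differences between the lightings were not tested by list.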

How the data were processed

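Whole livers of 26 Eu-MYC mice were profiled by RNA sequencing, and the labels number the mice within each sex and lighting. The authors deposited 1 table of expected counts per gene, which holds 36930 lines and 36883 gene names. Per the submitters' processing notes, STAR, DESeq2 and the mm10 build were used. The counting tool, annotation and strand setting are unknown here (not given in the sources used here), so overlapping or near-identical genes can share reads. Of the cells 45.8% held the value 0.015, which was set to 0, and 1.44% were not whole and were rounded for the tests. Libraries held 45364561 to 50242024 counts. CPM is the count divided by the library total. Every column of per-sample counts matched a label.

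A liver was infiltrated at 8 CPM of Cd79a or more. Infiltrated and clean livers were compared in females with edgeR 4.0.16 in R 4.3.3 (filterByExpr at a count minimum of 10, TMM scaling, robust quasi-likelihood fit, lighting as a covariate), with Benjamini-Hochberg adjustment over all genes tested and a limit of 0.05. The SE is the absolute log2 fold change over the root of the F value. Males were fitted alone, and interaction terms tested sex over all libraries and lighting within females. DESeq2 1.42.0 and limma-voom 3.58.1 were alternatives. On simulated counts for 17290 genes of the female livers, 85 of 100 genes changed 2-fold and 98 of 100 changed 4-fold were recovered. For 17410 genes of the male livers the numbers were 37 and 95. Unchanged genes past the limit numbered 12 in the female and 10 in the male counts. The changed genes were drawn from well-counted ones, went up and down in equal number and were few. These rates therefore do not carry over to low genes or to a split with as many genes past the limit as here.

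The rule for named genes took Cd79a, Mki67 and Myc, the 12 higher and 12 lower genes with the smallest p, up to 5 genes per list and up to 5 per direction of each interaction. Pax5, Ebf1, S100a8, Clec4f, Cd5l, Cxcl13, Hmgcs1, Cyp8b1, Cyp2e1, Apex1, Cdk4 and the genes given by level alone were chosen after their values were seen. The members, gene lists and motifs were chosen with earlier results of these data known. The p-values of the sex and lighting tests set differences against the spread between animals within groups cut on their own Cd79a. Fisher's exact p rests on counts of animals. Replicate numbers did not pair the libraries. Some genes are not reported here.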

Additional observations from a re-analysis of the deposited data

Results flagged for a closer look

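In 17 of 141 quantities looked at, 1 infiltrated female liver stood apart from the other 4 by more than 0.71 of the group's range. Chance passes that limit in about 1 in 20 groups of independent, normally distributed values. The quantities here are not independent, as summed lists stand beside their own members, and CPM need not be normally distributed. That rate therefore does not apply, and the 17 are a description. 12:12 female 7 stood apart with high Marco (690 CPM), Cd68 (113 CPM), Cd5l (585 CPM) and summed macrophage level (3027 CPM). The same liver stood apart in the red cell gene Alas2 (179 CPM), the adhesion gene Cd2 (19.9 CPM), the filament gene Vim (362 CPM) and the lambda constant gene Iglc3 (14.3 CPM). Jet lag female 2 stood apart in the acute phase genes Saa1 (147 CPM) and Saa2 (92.5 CPM), the transcriptional repressor gene Bcl6 (61.5 CPM) and the cytochrome P450 gene Cyp2b9 (958 CPM). Jet lag female 5 stood apart in Dntt (11.6 CPM), Sqle (100.3 CPM) and the sulfotransferase gene Sult3a1 (264 CPM). 12:12 female 6 stood apart in Il7r (14.4 CPM) and jet lag female 6 in A1bg (284 CPM). Standing apart is meant from the other 4 infiltrated livers and not from the clean ones. The flagged Sqle value lay within the clean range of 86.1 to 181 CPM, and that of A1bg within 24.4 to 1357 CPM. Those of Sult3a1 and Cyp2b9 lay just above the clean ranges of 68.7 to 257 CPM and 604 to 931 CPM.

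The test of the difference between the sexes passed for genes with a female minus male log2 difference of 2.38 in C6, 2.02 in Bmyc, -7.25 in Slc22a26, -6.88 in Cyp2b13, -5.76 in LOC105246783 and -11.94 in Sult3a1. Cyp2b13 stood at 47.1 CPM in 12:12 male 3, 74.7 CPM in jet lag male 8 and 0.305 CPM in 12:12 male 5, and at 148 to 480 CPM in infiltrated females. Sult3a1 stood at 5.98 and 41.3 CPM in 12:12 male 3 and jet lag male 8 and at 0 in 12:12 male 5. The test of the difference between the lightings passed with a jet lag minus 12:12 log2 difference of 1.31 in Slc1a2, 1.08 in Prkd3, 2.06 in Mir8114 and -1.68 in Rftn1. Mir8114 (chromosome 1, 153899926 to 153900036) overlaps Glul (153899929 to 153909723), and overlapping genes can share reads. The infiltrated females had the same order in Mir8114 as in Glul. Glul itself did not pass the lighting test (1.702, adjusted p = 0.0608). Whether the Mir8114 counts are reads of Glul was not tested.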

How the results depend on the processing

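None of the 91 named fold changes reversed under the alternatives run. All 91 were past the limit in the fit of all 16 livers, and many were chosen for their small p there. Most alternatives refit the same libraries. The absence of reversals and the few misses given below were thus partly set by the choice and are no independent support. In 6 of the 38 lists the balance of higher and lower genes turned under at least 1 alternative, the acute phase and secreted protein lists as given above. The ER stress list gave 3 higher and 4 lower in 12:12 libraries alone, the p53 list 0 and 1 in jet lag libraries alone, and the iron and periportal lists 2 and 1 with library totals as the scale. The periportal median was -0.33 under the replicate block. The lower genes in females numbered 1295 with library totals as the scale. A replicate block gave 776 higher and 334 lower genes, but same-numbered libraries correlated from -0.365 to 0.583, so the numbers did not pair them. Jet lag libraries alone gave 886 and 212. Without 12:12 female 6 and jet lag female 5, an alternative chosen after seeing the data, 2395 genes were higher (2186 of them also in all 16 livers) and 1596 lower (1357 also). Leaving out each library gave 2738 to 3593 higher and 1480 to 2568 lower genes in females, and 634 to 2873 and 6 to 1692 in males. DESeq2 gave 1285 lower genes in males, 93 genes that differed between the sexes and 320 between lightings. Leaving out each library gave 6 to 218 and 0 to 255 genes in those 2 tests, and the Fisher's exact p for lighting ran from 0.569 to 1. Of 2727 alternatives for the 91 named fold changes, 2665 kept their side of the limit and 62 missed it, 28 of these under the block and 20 in jet lag libraries alone. Vpreb1 missed it under limma-voom (3.36), Cyp2e1 with library totals (-0.35) and Hba-a1 at 16 CPM of Cd79a (1.24). The cause was not tested. Genes near the level of 3 counts, up to 0.0641 CPM in females, were not resolved at this depth.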
